A study of Mus musculus with 18 samples.

Results

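The aminoacyl-tRNA synthetases are the enzymes that join each amino acid to its tRNA. Their 36 genes were taken from a fixed list, with 20 that serve the cytosol and 16, whose symbols end in 2, that serve the mitochondria, out of 52636 genes in the count tables. All 36 were found and all 36 passed the filter on low counts. Expression was measured by bulk RNA sequencing of cultured mouse lung cells labelled alveolar type 2, the epithelial cells of the alveolus that make surfactant. Before treatment, the cultures spent 19 days in CHIR99201 (the spelling of the labels), a GSK3 inhibitor used to activate Wnt signalling. LGK974 was present in every group, controls included; it inhibits porcupine, the enzyme that Wnt ligands need in order to be secreted. The 6 groups held 3 libraries each, written here as CHIR (LGK974 with CHIR99201, the control), 24 h withdrawal and 48 h withdrawal (LGK974 without CHIR99201), WNT (LGK974 with Wnt), FZD5 agonist and FZD6 agonist (LGK974 with an agonist of the receptor Fzd5 or Fzd6). The labels state 8 to 12 h of treatment and no strain or age of the mice. They also leave the time without CHIR99201 before a ligand was added unstated, so both withdrawal groups served as baselines. Nothing in the labels ties the 3 libraries of a group to separate cultures; p-values then measure only the spread between these libraries, part of which may be technical.

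As background, each tRNA is charged by a synthetase of its amino acid, and the charged tRNAs then feed the ribosome. Mammals keep largely separate sets of synthetases for the cytosol and for the mitochondrial ribosome, although the Gars and Kars genes each make enzymes for both compartments. Eprs joins glutamate and proline activity in a single cytosolic protein, and mitochondria make glutaminyl-tRNA by an amidotransferase rather than by a synthetase of their own. A group of the cytosolic enzymes sits in a large multisynthetase complex held together by the scaffold proteins Aimp1, Aimp2 and Eef1e1. Many cytosolic synthetase genes are known targets of ATF4, the transcription factor of the amino acid response, which binds with C/EBP proteins to a composite element whose core reads TGATGNAA.

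That element was looked for in the RefSeq promoter windows (GRCm38.p6, 250 bases before to 50 bases after the start site). Windows were used for 27 of the 36 genes. Left out were the cytosolic Cars, Hars, Lars, Nars, Rars, Vars and Wars and the mitochondrial Hars2 and Pars2. Of these, Cars, Hars, Nars and Rars are among the genes called lower after 48 h withdrawal below. The shares therefore describe the genes with a window used and not the whole sets. The letters TGATGNAA, on either strand, were present in 5 of 13 cytosolic genes (38.5%), in 0 of 14 mitochondrial genes and in 4.51% of the 27025 genes with a window. The E-box CACGTG, which reads the same on both strands and is the site of MYC and related factors, was present in 4 of 13 cytosolic genes (Farsb, Aars, Iars and Tars), in 1 of 14 mitochondrial genes (Ears2) and in 8.09% of all. The stretches that hold TGATGNAA in 4 of the 5 genes are shown, since it was found in cytosolic genes and in 0 mitochondrial ones, 5′ to 3′ on the strand of the gene, with the matching bases in capitals (TTNCATCA is the match on the other strand).
Yars, chr4:129189895-129189924, plus strand: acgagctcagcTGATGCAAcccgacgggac
Gars, chr6:55037960-55037989, plus strand: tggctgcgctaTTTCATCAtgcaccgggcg
Iars, chr13:49682126-49682155, plus strand: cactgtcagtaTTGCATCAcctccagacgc
Tars, chr15:11399655-11399684, minus strand: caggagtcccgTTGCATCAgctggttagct
The first matching base lay 30 bases before the start site in Gars, 15 before it in Tars, and 3 and 7 after it in Yars and Iars. A match describes the letters of the window and is not evidence of binding.

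The libraries held 31509607 to 52030066 counts each, and a member had between 2 and 73733 counts in a library (median 2973). Levels are given as CPM, the counts scaled to library size with TMM factors. The alveolar type 2 markers, Sftpc among them, were detected in every group, while Ptprc, the pan-leukocyte marker, stayed at or below 0.07 CPM, and the summed mesenchymal and endothelial markers at or below 0.714 and 0.466 CPM. CHIR 1, CHIR 3, FZD6 agonist 1 and 24 h withdrawal 2 stood apart: their median correlation with the other libraries was 0.782 to 0.950 against 0.966 to 0.982 in the other 14, and Sftpc took 9.11% to 13.0% of their counts against 3.95% to 5.63%. In CHIR 3, FZD6 agonist 1 and 24 h withdrawal 2, Xist, the RNA of the silenced X chromosome in female cells, had 0 to 4 counts against 251 to 812 in the other 15, while the Y-linked Ddx3y had 1280 to 2818 counts in all 18. The same 3 libraries held airway secretory transcripts, with Scgb1a1 at 38.6 to 79.8 CPM and Reg3g at 26.5 to 208 CPM, against at most 0.947 and 0 CPM elsewhere. In 24 h withdrawal 2, 31.3% of the library total that the deposited RPKM values imply lay outside the gene counts, beside 14.3% and 15.5% in the other libraries of its group. There Malat1, Neat1 and Gm26917 took 10.8% of the counts beside 0.421% and 0.483%, the mitochondrial genome 4.13% beside 0.445% and 0.458%, and 16846 genes had a count beside 20547 and 21003. The part of these differences in the group values was not tested beyond leaving out the 4 libraries. They are included in the fit of all 18 libraries. Many results, but not all, are also given from a fit of the other 14, chosen after the data were seen. In that fit CHIR 2 alone represents CHIR and is assumed to vary like the other groups. Log2 changes between 48 h withdrawal and CHIR that are given over 18 libraries alone could be smaller or larger over 14. That of Cars was -1.82 over 18 and -1.43 over 14. For Rars these values were -1.86 and -1.31, for Asns -2.81 and -2.22, and for Sars2 -0.79 and -1.02. WNT, 48 h withdrawal and FZD5 agonist hold none of the 4 libraries.

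Summed over the set, the cytosolic synthetases were highest with CHIR and lowest after 48 h without it, and the group means of the mitochondrial ones varied much less. The cytosolic sum was 4168, 4262 and 6915 CPM in the CHIR libraries, 3472, 3229 and 3319 CPM after 24 h withdrawal and 2076, 2039.8 and 2130.0 CPM after 48 h. With WNT it was 2171, 2199.5 and 2088 CPM, close to the 48 h libraries, and with the FZD5 agonist 2464, 3277 and 2927 CPM. With the FZD6 agonist it was 5857, 2944 and 2894 CPM, where the first library is one of those that stood apart. Every FZD5 agonist and FZD6 agonist library therefore lay above every WNT and 48 h library.

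**Figure D1:**
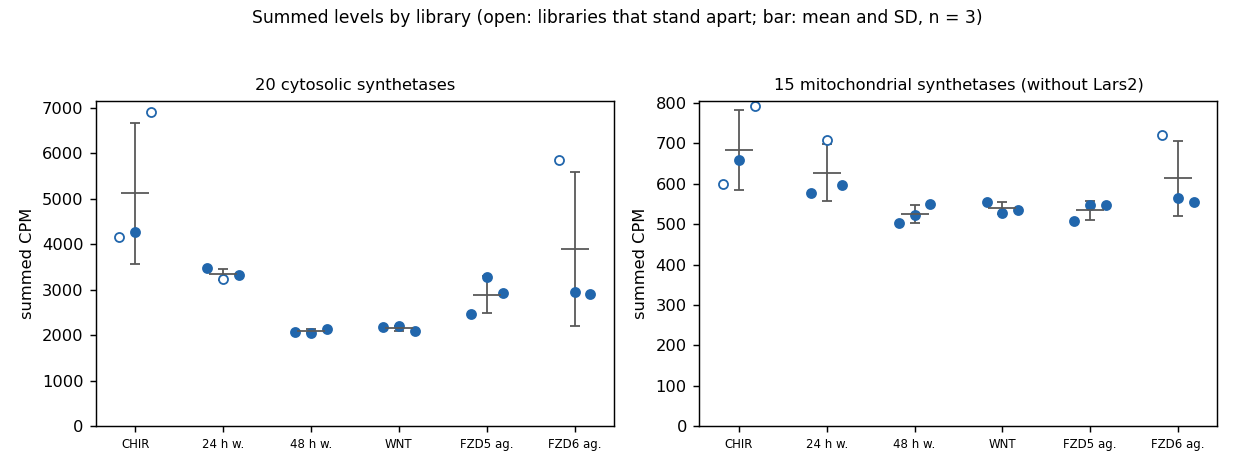
Summed level of the 20 cytosolic synthetases (left) and of the mitochondrial synthetases without Lars2 (right), in CPM, for each library (points; open points are the 4 libraries that stood apart) with the mean and SD of 3 libraries per group. The cytosolic sum lies between 2039.8 and 2199.5 CPM in the 48 h withdrawal and WNT libraries and at 2464 CPM or more in the other 12, while the mitochondrial sum runs from 504 to 792 CPM.

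The mitochondrial sum was dominated by Lars2, the mitochondrial leucine enzyme, which made up 43.7% to 74.8% of it in each library. With Lars2 the sum was 1802 ± 676 CPM with CHIR (SD, n = 3), where libraries ran from 1063 to 2388 CPM. It was 1865 ± 66.8 CPM after 24 h withdrawal and 1988 ± 79.2 CPM after 48 h, so its means did not fall. Without Lars2 the sum was 683 ± 98.7 CPM with CHIR, 627 ± 71.1 CPM after 24 h withdrawal and 525 ± 22.6 CPM after 48 h. It was 539.9 ± 14.4 CPM with WNT, 534 ± 23.2 CPM with the FZD5 agonist and 613 ± 93.0 CPM with the FZD6 agonist. The ratio of the cytosolic to this mitochondrial sum was 6.46 to 8.74 in the CHIR libraries and 3.88 to 4.12 in the 48 h withdrawal libraries. In bulk samples, fewer cells of a type and less RNA per cell cannot be told apart.

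Whether synthetase levels differed once CHIR99201 was withdrawn was addressed by comparing 48 h withdrawal with CHIR. In the fit of 18 libraries (edgeR's quasi-likelihood test, Benjamini-Hochberg adjusted p under 0.05 over 16497 genes), 9 of 20 cytosolic synthetases fell (Cars, Eprs, Hars, Iars, Mars1, Nars, Rars, Tars and Yars), where 1.49% of all genes were called lower, and 0 rose, against 1.1% of all genes. The median log2 change was -1.34 over the 20 cytosolic genes, -0.28 over the 16 mitochondrial genes and -0.04 over all genes tested. Of the mitochondrial genes 2 fell, Yars2 and Sars2, and 0 rose. Every 48 h library lay below every CHIR library for 17 of 20 cytosolic and 8 of 16 mitochondrial genes, against 14.5% of all genes, and above every CHIR library for 1 cytosolic gene, Qars, and 0 mitochondrial genes, against 14.5%. Without the 4 libraries, 19 of 20 cytosolic and 7 of 16 mitochondrial genes were called lower, where 13.9% of all genes were, and 0 members were called higher, against 13.6%. The medians were then -0.95 and -0.24, so the size of the cytosolic change was smaller without the 4 libraries. The count of calls depended on single 48 h libraries, among the members as among all genes. Without 48 h withdrawal 1, 2 or 3, there were 2, 3 and 2 cytosolic calls and 1 mitochondrial call each time. Of all genes, 57 of 17069, 87 of 17092 and 74 of 17095 were then called. Leaving out a CHIR library gave 8 or 9 cytosolic and 2 or 3 mitochondrial calls. Of all genes, 197 of 16970, 585 of 17057 and 920 of 17021 were called without CHIR 1, 2 or 3. Over these 6 omissions Cars, Tars and Yars2 kept their call each time, Nars in 4, Eprs, Mars1, Rars and Yars in 3, Hars and Sars2 in 2 and Iars in 1.

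**Figure D2:**
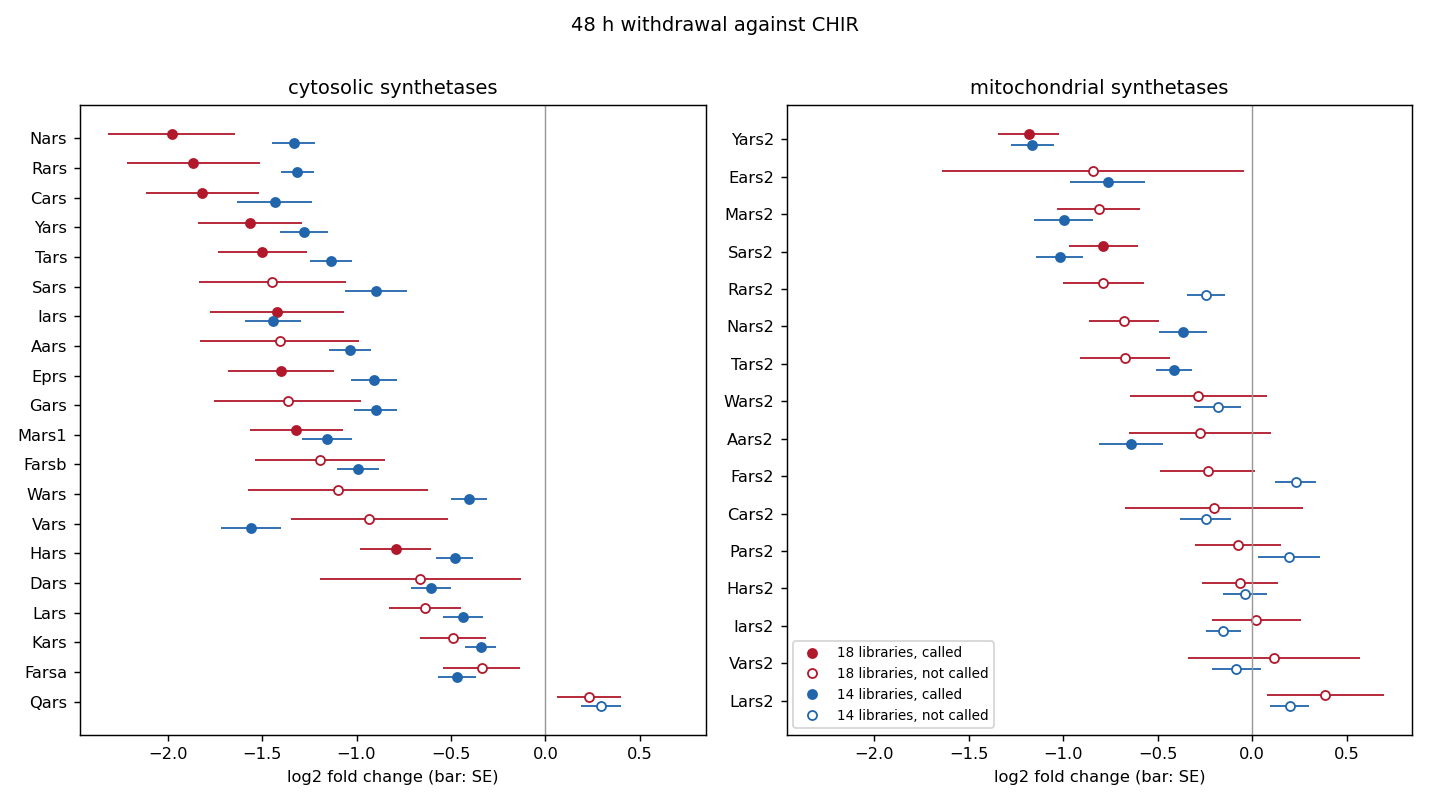
Log2 fold change of each synthetase between 48 h withdrawal and CHIR with its SE, cytosolic (left) and mitochondrial (right), from the fits of 18 (red) and 14 (blue) libraries; filled points passed an adjusted p of 0.05. The cytosolic changes run from -1.98 (Nars) to 0.23 (Qars) in the fit of 18 libraries, and the mitochondrial ones from -1.18 (Yars2) to 0.39 (Lars2).

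Markers of other states moved with the same comparison. The summed alveolar type 1 markers were 10153 to 11324 CPM after 48 h withdrawal and 4792 to 8682 CPM with CHIR, without overlap. All 10 of them exceeded 1 CPM in at least 1 library of both groups. Aqp5, part of that sum, overlapped, at 3884 to 4426 CPM after 48 h and 2580 to 5795 CPM with CHIR. Over 18 libraries 3 of the 10 were called higher and 0 lower, against 1.1% and 1.49% of all genes. Of the 10 alveolar type 2 markers 1 was called higher and 0 lower, with 6 fitted higher and 4 lower. The median log2 changes were 2.11 (type 1) and 0.43 (type 2) over 18 libraries, and 2.00 and 0.44 over 14. The summed haematopoietic list was 242 to 425 CPM after 48 h and 1294 to 2204 CPM with CHIR, almost all of it Lyz1. Of its 7 genes only Lyz1 and Cd68 exceeded 1 CPM in either group, while Adgre1 was at 0 in every library and Csf1r stayed at or below 0.62 CPM. The summed club and secretory markers were 559 to 696 CPM after 48 h, within the 74.0 to 961 CPM of CHIR, but without the 4 libraries 4 of 6 tested were called higher, where 13.6% of all genes were. Cyp2f2 made up most of this list, at 511 to 648 CPM after 48 h and at 44.9, 46.0 and 686 CPM in CHIR 1, 2 and 3. The summed ciliated markers were low, at 9.09 to 17.0 CPM after 48 h and 2.07 to 2.41 CPM with CHIR, without overlap. Of the 6, 1 exceeded 1 CPM in at least 1 library of each group. Their part in the result was not tested.

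The cytosolic genes with the strongest evidence of a difference among the 6 groups came first from outside the multisynthetase complex. Tars (chr15:11382301-11399665, minus strand), the threonine enzyme, was at 285, 189 and 245 CPM with CHIR, 152, 129 and 151 CPM after 24 h withdrawal and 80.4, 91.6 and 82.7 CPM after 48 h. It was at 84.4, 86.3 and 75.6 CPM with WNT, 118, 151 and 131 CPM with the FZD5 agonist and 226, 128 and 120 CPM with the FZD6 agonist. The CHIR libraries lay above all others but FZD6 agonist 1, and the WNT and 48 h libraries overlapped below the rest. The log2 change between 48 h and CHIR was -1.50 ± 0.23 (SE; adjusted p = 0.00633), with a level 35.4% of that with CHIR, and it was -1.13 ± 0.11 in the fit of 14 libraries.

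Cars (chr7:143557230-143600090, minus strand) charges cysteine tRNA. It was at 201, 154 and 239 CPM with CHIR, 124, 176 and 109 CPM after 24 h and 60.0, 51.5 and 57.2 CPM after 48 h. With WNT it was at 58.5, 60.6 and 50.3 CPM, with the FZD5 agonist at 67.3, 115 and 96.3 CPM and with the FZD6 agonist at 197, 99.2 and 93.8 CPM. All 48 h libraries lay below every library with CHIR or either agonist. The log2 change between 48 h and CHIR was -1.82 ± 0.30 (adjusted p = 0.00762).

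Nars (chr18:64499647-64516652, minus strand), the asparagine enzyme, had the lowest log2 change of the 36 genes, -1.98 ± 0.34 (adjusted p = 0.00893), which left 25.4% of the level with CHIR. Its levels were 559, 365 and 763 CPM with CHIR, 297, 374 and 267 CPM after 24 h and 141, 144 and 143 CPM after 48 h. Those with WNT were 143, 158 and 140 CPM, those with the FZD5 agonist 194, 258 and 240 CPM, and those with the FZD6 agonist 558, 227 and 223 CPM. The 48 h libraries lay close together and below all but the WNT libraries, and the spread with CHIR was wide: without CHIR 1 and CHIR 3 the log2 change was -1.33 ± 0.11.

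Yars (chr4:129189760-129219607, plus strand), the tyrosine enzyme, was at 206, 208 and 336 CPM with CHIR, 167, 197 and 154 CPM after 24 h and 87.3, 80.4 and 85.6 CPM after 48 h. It was at 89.9, 87.7 and 80.5 CPM with WNT, 111, 154 and 134 CPM with the FZD5 agonist and 280, 146 and 131 CPM with the FZD6 agonist. As with Tars, WNT and 48 h overlapped and both agonist groups lay above them. Its change between 48 h and CHIR was -1.57 ± 0.27 (adjusted p = 0.00957). Hars (chr18:36766528-36783205, minus strand), the histidine enzyme, changed by -0.79 ± 0.19 (adjusted p = 0.0369) and by -0.48 ± 0.10 in the fit of 14 libraries, from 113, 78.9 and 97.1 CPM with CHIR to 51.9, 58.7 and 56.5 CPM after 48 h. It was at 66.2, 50.8 and 74.3 CPM after 24 h, 60.1, 56.0 and 60.7 CPM with WNT, 61.5, 60.7 and 63.3 CPM with the FZD5 agonist and 86.3, 60.7 and 67.4 CPM with the FZD6 agonist. The Hars gene overlaps Hars2 on the opposite strand, and whether the counting used strand is not given in the sources used here, so the division of reads between them is uncertain.

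**Figure D3:**
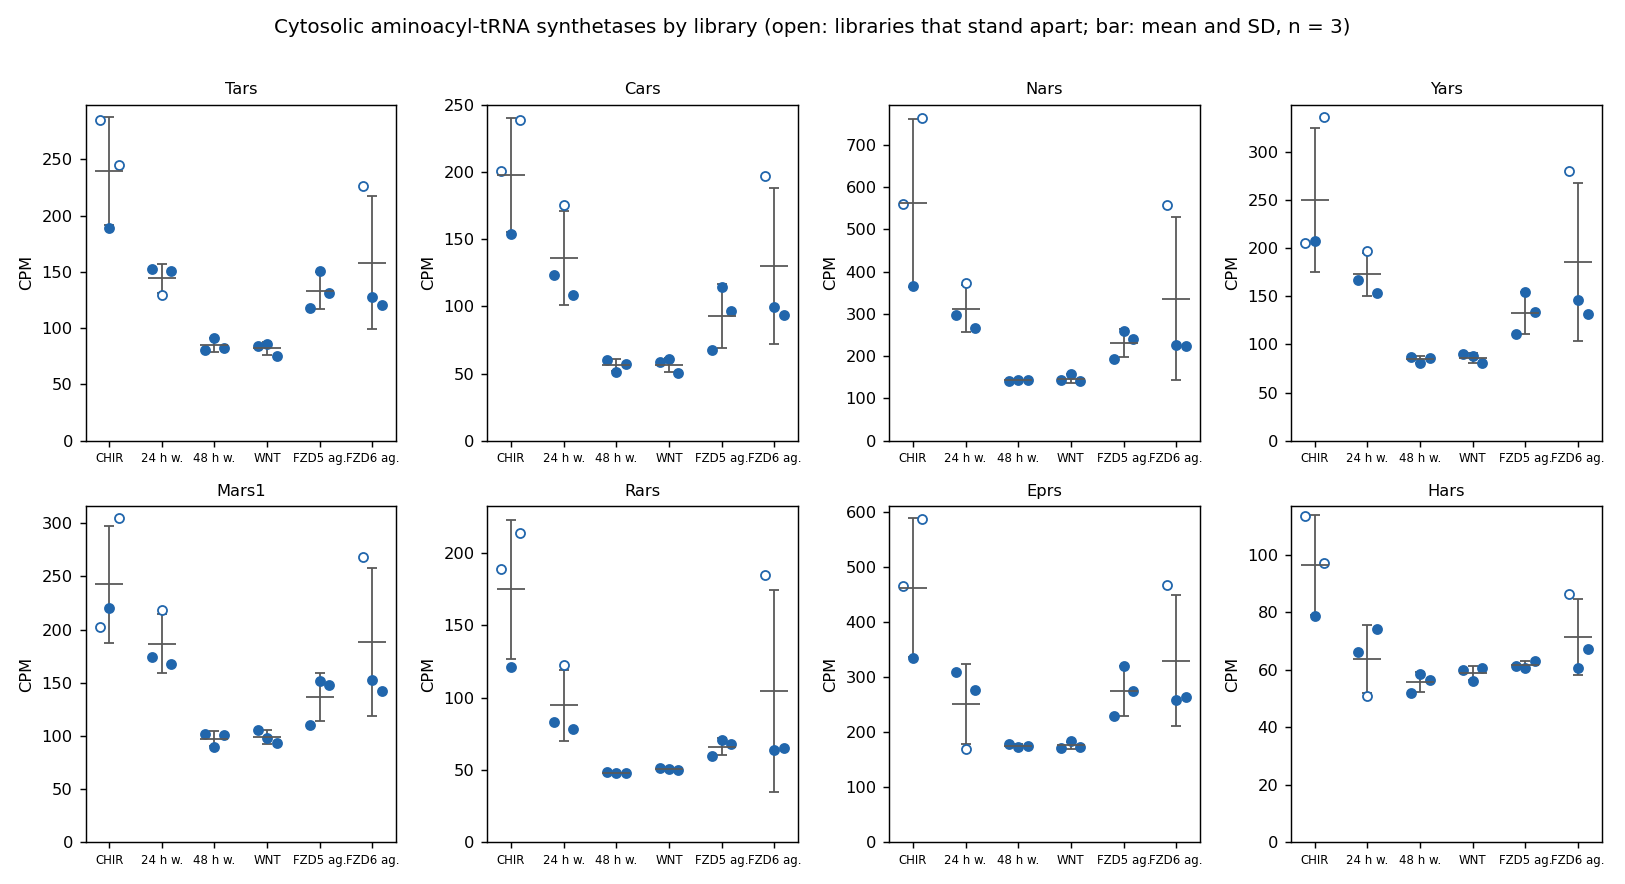
CPM of 8 cytosolic synthetases in each library (points; open points are the 4 libraries that stood apart; 24 h w. and 48 h w. are the withdrawal groups, ag. an agonist) with the mean and SD of 3 libraries per group. In each panel the 48 h withdrawal libraries lie below the CHIR libraries and overlap the WNT libraries or lie next to them.

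Among the members of the complex, Mars1, Rars, Eprs and Iars fell between CHIR and 48 h withdrawal. Mars1 (Mars in the count tables; chr10:127296221-127311786, minus strand), the methionine enzyme, was at 202, 220 and 305 CPM with CHIR, 174, 218 and 167 CPM after 24 h and 102, 89.1 and 101 CPM after 48 h. It was at 105, 98.2 and 93.1 CPM with WNT, 110, 151 and 148 CPM with the FZD5 agonist and 268, 153 and 143 CPM with the FZD6 agonist. Its change between 48 h and CHIR was -1.32 ± 0.25 (adjusted p = 0.0121), and its locus overlaps Ddit3, a gene of the stress response, so shared reads are possible. Rars (chr11:35808381-35834506, minus strand), the arginine enzyme, changed by -1.86 ± 0.35 (adjusted p = 0.0127). It was at 189, 121 and 214 CPM with CHIR, 83.0, 123 and 78.0 CPM after 24 h, 48.4, 48.1 and 47.5 CPM after 48 h, 51.6, 50.6 and 50.2 CPM with WNT, 59.8, 70.8 and 67.8 CPM with the FZD5 agonist and 185, 63.6 and 65.3 CPM with the FZD6 agonist. Here the WNT libraries lay just above those of 48 h, without overlap.

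Eprs (chr1:185363044-185428360, plus strand) encodes the joint glutamate and proline enzyme. It was at 466, 334 and 588 CPM with CHIR, 309, 169 and 277 CPM after 24 h and 178, 173 and 176 CPM after 48 h. With WNT it was at 172, 183 and 173 CPM, with the FZD5 agonist at 229, 321 and 274 CPM and with the FZD6 agonist at 468, 259 and 263 CPM. The low value of 169 CPM after 24 h belongs to a library that stood apart. The change between 48 h and CHIR was -1.40 ± 0.28 (adjusted p = 0.0163), and -0.91 ± 0.12 in the fit of 14 libraries. Iars (chr13:49682100-49734267, plus strand), the isoleucine enzyme, changed by -1.42 ± 0.36 (adjusted p = 0.0476), from 133, 204 and 257 CPM with CHIR to 81.7, 65.9 and 74.0 CPM after 48 h. Over the 8 genes of the complex the median log2 change was -0.99, with 4 called lower, and over the 12 cytosolic genes outside it -1.39, with 5 called lower. Split by the structural class of the catalytic domain, the medians were -1.32 over 9 class I and -1.28 over 10 class II cytosolic genes. Eprs, which holds both classes, was left out of that split.

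Several cytosolic genes departed from the rest. Qars, the glutamine enzyme, was at 58.6, 52.2 and 50.3 CPM with CHIR and 61.8, 63.8 and 63.6 CPM after 48 h, a log2 change of +0.23 ± 0.17 that did not pass the test (adjusted p = 0.557). All 48 h libraries lay above the CHIR libraries, and in the fit of 14 libraries Qars was the 1 cytosolic gene not called (0.29 ± 0.11, adjusted p = 0.0538). Gars, the glycine enzyme, serves both compartments and was at 311, 335 and 719 CPM with CHIR, 282, 246 and 282 CPM after 24 h and 172, 184 and 175 CPM after 48 h. Its other levels were 199, 173 and 179 CPM with WNT, 177, 235 and 215 CPM with the FZD5 agonist and 661, 219 and 219 CPM with the FZD6 agonist. The change of -1.36 ± 0.39 between 48 h and CHIR missed the threshold (adjusted p = 0.0742) beside the high value of CHIR 3, and without the 4 libraries it was -0.90 ± 0.11 and passed (adjusted p = 2.68e-05).

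Kars, the lysine enzyme, also of both compartments, had a narrow range. It was at 108, 86.5 and 88.8 CPM with CHIR, 85.2, 54.4 and 84.0 CPM after 24 h, 67.5, 65.0 and 69.0 CPM after 48 h, 74.2, 71.1 and 66.5 CPM with WNT, 76.0, 79.1 and 75.9 CPM with the FZD5 agonist and 79.4, 76.7 and 73.4 CPM with the FZD6 agonist. The change between 48 h and CHIR was -0.49 ± 0.17 (adjusted p = 0.156) and -0.34 ± 0.08 in the fit of 14 libraries (adjusted p = 0.00606). Vars, the valine enzyme, was at 99.7 CPM in CHIR 1 but at 545 and 399 CPM in CHIR 2 and CHIR 3, so its groups overlapped although its change was the lowest in the fit of 14 libraries (-1.56 ± 0.16). Wars, the tryptophan enzyme, was at 434 CPM in CHIR 3 and 341 CPM in FZD6 agonist 1 and at 87.8 to 193 CPM in the other 16 libraries. For the subunits of the phenylalanine enzyme the log2 values were -1.19 ± 0.34 for Farsb and -0.34 ± 0.20 for Farsa, neither of them called over 18 libraries. For the remaining genes, the changes over 18 libraries were -1.44 for Sars, -1.41 for Aars, -0.66 for Dars and -0.64 for Lars, each short of the threshold.

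Of the mitochondrial synthetases, Yars2 (chr16:16302965-16309640, plus strand), the tyrosine enzyme, had the smallest p of the 36 genes between 48 h and CHIR. It was at 64.5, 58.6 and 52.5 CPM with CHIR, 39.6, 38.3 and 37.7 CPM after 24 h and 23.2, 27.0 and 27.1 CPM after 48 h. With WNT it was at 29.2, 26.1 and 27.7 CPM, with the FZD5 agonist at 30.0, 34.7 and 33.8 CPM and with the FZD6 agonist at 45.9, 33.7 and 36.9 CPM. The 3 groups of the withdrawal series did not overlap. The change between 48 h and CHIR was -1.18 ± 0.16 (adjusted p = 0.00344) and -1.16 ± 0.11 in the fit of 14 libraries, so this value did not rest on the libraries that stood apart.

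Sars2 (chr7:28741992-28753871, plus strand), the mitochondrial serine enzyme, was at 18.7, 29.6 and 26.2 CPM with CHIR, 23.2, 21.3 and 22.5 CPM after 24 h and 14.4, 13.8 and 14.9 CPM after 48 h. It was at 17.0, 15.4 and 16.3 CPM with WNT, 18.3, 21.5 and 22.7 CPM with the FZD5 agonist and 22.3, 23.8 and 23.9 CPM with the FZD6 agonist. All WNT libraries lay above those of 48 h and below those of either agonist. The change between 48 h and CHIR was -0.79 ± 0.18 (adjusted p = 0.0330). Mars2, the methionine enzyme, was at 19.0, 26.3 and 22.9 CPM with CHIR and 12.1, 13.3 and 13.4 CPM after 48 h, a change of -0.81 ± 0.22 (adjusted p = 0.0635). Its other levels were 18.4, 22.2 and 18.3 CPM after 24 h, 13.2, 12.6 and 14.8 CPM with WNT, 11.8, 15.7 and 16.5 CPM with the FZD5 agonist and 23.8, 16.0 and 14.9 CPM with the FZD6 agonist. The groups did not overlap between 48 h and CHIR, yet the test was missed over 18 libraries.

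Nars2, the mitochondrial asparagine enzyme, was at 52.5, 39.8 and 53.8 CPM with CHIR, 41.9, 30.4 and 37.1 CPM after 24 h and 29.2, 28.6 and 33.3 CPM after 48 h. It was at 31.3, 33.7 and 31.2 CPM with WNT, 27.8, 34.6 and 31.7 CPM with the FZD5 agonist and 44.9, 33.9 and 35.3 CPM with the FZD6 agonist. Its change of -0.68 ± 0.19 (adjusted p = 0.0640) was smaller than that of its cytosolic counterpart Nars. The mitochondrial genes Hars2, Iars2, Pars2, Vars2 and Lars2 had changes between -0.08 and 0.39 over 18 libraries. Their groups overlapped, and none of the 5 was called in this comparison in either fit. Fars2, the phenylalanine enzyme, was fitted lower over 18 libraries (-0.24 ± 0.25) and higher over 14 (0.23 ± 0.11), with no call in either.

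**Figure D4:**
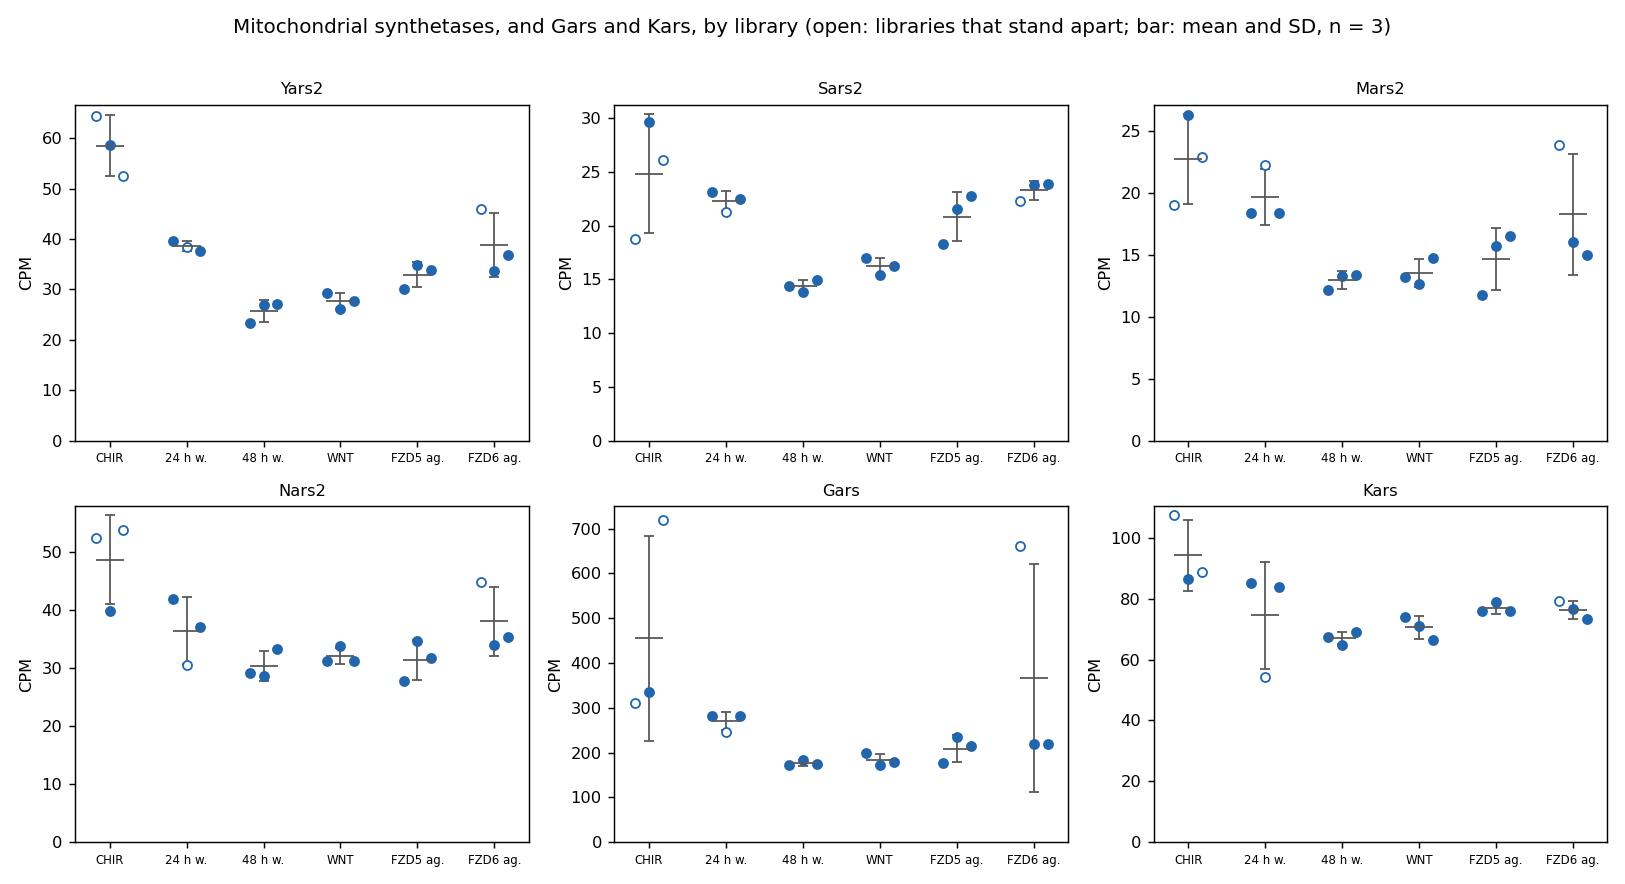
CPM of 4 mitochondrial synthetases and of Gars and Kars, which serve both compartments, in each library (points; open points are the 4 libraries that stood apart) with the mean and SD of 3 libraries per group. Yars2 falls from 52.5 to 64.5 CPM with CHIR to 23.2 to 27.1 CPM after 48 h, and the 48 h libraries of all 6 genes lie below their CHIR libraries.

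Pairing cytosolic genes with the mitochondrial gene of the same amino acid gave 15 pairs over 14 amino acids. Eprs, which joins glutamate and proline activity, was not paired with Ears2 or Pars2, and Fars2 was paired with both Farsa and Farsb. In all 15 the cytosolic log2 change between CHIR and 48 h was the lower of the pair over 18 libraries, with a median difference of -0.96 and a range from -1.62 for cysteine to -0.10 for Farsa and Fars2. The range for tyrosine was narrow, with -1.57 for Yars beside -1.18 for Yars2. Over 14 libraries the cytosolic change was the lower in 14 of 15 pairs, with serine the exception (-0.90 for Sars and -1.02 for Sars2), and the median difference was -0.70. These differences are descriptions: no test of a difference between the members of a pair was run.

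After 24 h, 19 of 20 cytosolic and 11 of 16 mitochondrial changes against CHIR were below 0, with medians of -0.59 and -0.16, and 0 members passed the test over 18 libraries, where 0% of all genes did. At an unadjusted p under 0.05, edgeR counted 7 cytosolic and 5 mitochondrial genes, against 17% of all genes, and DESeq2 called 1 of each set, against 2.93%. All 24 h libraries lay below all CHIR libraries for 7 cytosolic genes (Eprs, Farsb, Gars, Hars, Kars, Tars and Yars) and for Yars2, against 5.46% of all genes, and above them for 0 members, against 3.83%. Rars (-0.58 ± 0.10, adjusted p = 0.00404) and Yars2 (-0.59 ± 0.13, adjusted p = 0.0163) were called lower in the fit of 14 libraries, where 1.74% of all genes were, and 0 members higher, against 2.75%. Between 24 h and 48 h the cytosolic median was -0.62 and the mitochondrial -0.30, with 0 members called over 18 libraries, against 0.00606% of all genes called lower and 0.0424% higher. At an unadjusted p under 0.05 edgeR counted 10 cytosolic and 6 mitochondrial genes there, against 18% of all genes, and DESeq2 called 5 and 2, against 3.53%. The 24 h group holds 24 h withdrawal 2, the library with the RNA differences given above, where Dars was at 11.9 CPM beside 155 and 133 CPM in the other libraries of the group, Ears2 at 0.07 CPM beside 11.3 and 11.9 CPM, and Cars2 at 86.6 CPM beside 15.7 and 15.6 CPM. Over the 14 libraries, without it, 19 cytosolic and 6 mitochondrial genes were called lower between 24 h and 48 h, against 9.5% of all genes, and Hars2 was called higher (0.28 ± 0.09), against 8.49%.

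The ligands were compared with 48 h withdrawal to ask whether Wnt or activation of a single Frizzled receptor was accompanied by higher synthetase levels. These comparisons share the 48 h libraries with each other and with the comparison against CHIR, so the values are given side by side. In the fit of 18 libraries 0 members were called for WNT, the FZD5 agonist or the FZD6 agonist, where 0%, 0% and 0.0121% of all genes were called higher. At an unadjusted p under 0.05 edgeR counted 0, 5 and 12 cytosolic and 0, 2 and 3 mitochondrial genes, against 0.212%, 2.38% and 4.04% of all genes. DESeq2 called 0, 0 and 4 cytosolic and 0, 0 and 2 mitochondrial genes, against 0%, 0.206% and 0.394% of all genes. The median cytosolic change was 0.03 for WNT, 0.46 for the FZD5 agonist and 0.91 for the FZD6 agonist, and the mitochondrial medians were 0.07, 0.04 and 0.19.

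The FZD5 agonist and 48 h groups held none of the libraries that stood apart. A fit of these 6 libraries alone called 12 of 20 cytosolic genes higher (Aars, Eprs, Farsb, Iars, Nars, Rars, Tars, Vars, Yars, Dars, Mars1 and Cars) and 2 of 16 mitochondrial genes (Sars2 and Yars2), where 6.89% of all genes were called higher, and 0 members lower. The fit of 14 libraries called 15 and 2, adding Kars, Lars and Sars, against 8.86% of all genes. In it Iars, the isoleucine enzyme, changed by 0.83 ± 0.11 (adjusted p = 0.000219), Nars by 0.70 ± 0.09 (adjusted p = 7.55e-05) and Tars by 0.66 ± 0.08 (adjusted p = 8.84e-05). Every FZD5 agonist library lay above every 48 h library for 15 cytosolic and 3 mitochondrial genes, against 16.8% of all genes, and below for Cars2 and Fars2 alone among the members, against 15.6%. The cytosolic median was 0.46, 0.45 and 0.47 in the fits of 18, 6 and 14 libraries, so the number of calls, and not the size of the changes, differed between the fits.

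With the FZD6 agonist the fit of 14 libraries called 14 cytosolic and 3 mitochondrial genes higher than 48 h withdrawal, against 7.42% of all genes. Vars changed by 0.82 ± 0.13 (adjusted p = 0.00111), Yars by 0.72 ± 0.10 (adjusted p = 0.000327) and Sars2 by 0.73 ± 0.10 (adjusted p = 0.000216). The cytosolic median was then 0.47, where it had been 0.91 with FZD6 agonist 1 included. All FZD6 agonist libraries lay above those of 48 h for 18 cytosolic and 8 mitochondrial genes, against 13.2% of all genes, and below for Qars, against 12.4%. WNT gave 0 calls in the fit of 14 libraries too, against 0% of all genes, with 2 cytosolic and 1 mitochondrial gene at an unadjusted p under 0.05 in edgeR, where 7.71% of all genes were. The WNT libraries lay above those of 48 h for 4 cytosolic genes (Dars, Farsb, Rars and Vars) and 4 mitochondrial genes (Ears2, Pars2, Rars2 and Sars2), against 7.42% of all genes, and below for 0, against 8.8%. For Nars, the 95% interval of the log2 difference between WNT and 48 h was -0.11 to 0.23 in the fit of 14 libraries, and for Tars -0.20 to 0.13.

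**Figure D5:**
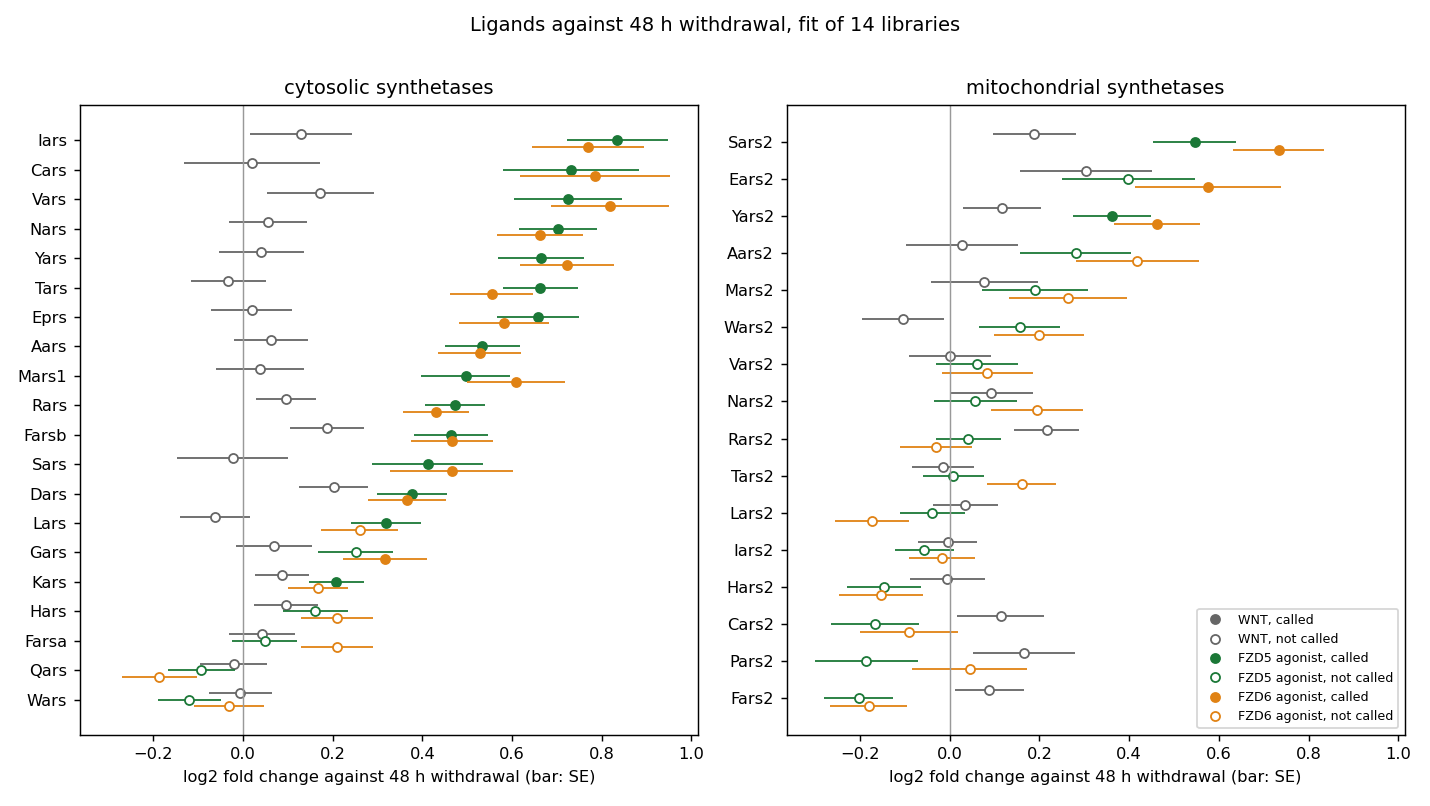
Log2 fold change of each synthetase against 48 h withdrawal with its SE for WNT (grey), the FZD5 agonist (green) and the FZD6 agonist (orange), cytosolic (left) and mitochondrial (right), from the fit of 14 libraries; filled points passed an adjusted p of 0.05. The cytosolic medians are 0.05, 0.47 and 0.47, and Qars and Wars lie below 0 for all 3 ligands, from -0.01 to -0.19.

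Wars and Qars stood outside this pattern. Wars was at 87.8, 105 and 102 CPM with the FZD5 agonist and 106, 102 and 114 CPM after 48 h, and Qars at 64.1, 54.0 and 58.0 CPM beside 61.8, 63.8 and 63.6 CPM. Farsa, Hars and Gars were not called for the FZD5 agonist in either fit. The marker lists moved here too: the summed haematopoietic list, again almost all Lyz1, was 982 to 1145 CPM with the FZD5 agonist and 1286 to 6164 CPM with the FZD6 agonist, above the 242 to 425 CPM of 48 h. The summed alveolar type 1 markers were 8229 to 10944 CPM with the FZD5 agonist, overlapping the 48 h range, and 8908 to 9182 CPM with the FZD6 agonist, below it. The summed club and secretory markers were 172 to 387 CPM with the FZD5 agonist, below the 559 to 696 CPM of 48 h, and 187 to 1087 CPM with the FZD6 agonist. Over 14 libraries 1 of 6 tested was called lower with each agonist, against 6.84% and 4.73% of all genes. Their part in the result was not tested.

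The agonists were compared directly with WNT after these values were seen. Over 14 libraries, 13 cytosolic genes were called higher with the FZD5 agonist than with WNT, against 8.74% of all genes, and 12 with the FZD6 agonist, against 6.61%. For Tars the differences were 0.70 (adjusted p = 6.08e-05) and 0.59 (adjusted p = 0.000758), and for Nars 0.65 (adjusted p = 0.000147) and 0.61 (adjusted p = 0.000788). Of the mitochondrial genes Sars2 was called higher with both agonists and Yars2 with the FZD6 agonist, and Fars2 and Pars2 were called lower with the FZD5 agonist, where 7.92% of all genes were. Over 18 libraries 0 members were called against WNT, where 0% of all genes were. At an unadjusted p under 0.05 edgeR counted 4 cytosolic and 0 mitochondrial genes there for the FZD5 agonist and 12 and 2 for the FZD6 agonist, against 2.5% and 3.67% of all genes, and DESeq2 called 0 and 3 cytosolic genes, against 0.206% and 0.364%. The FZD5 agonist differed from the FZD6 agonist in 0 members in either fit, against 0% of all genes over 18 libraries and 0.00574% called higher over 14. At an unadjusted p under 0.05 edgeR counted 0 members in both fits, against 0.994% and 3.06% of all genes, and DESeq2 called 0, against 0%. The FZD5 agonist libraries lay below those of the FZD6 agonist for Farsa and Tars2, against 5.2% of all genes, and above them for 0 members, against 4.95%. For Nars the 95% interval of FZD5 agonist against FZD6 agonist was -0.15 to 0.23 in the fit of 14 libraries and -1.18 to 0.10 in that of 18.

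Against the 24 h baseline the ligands gave other values. WNT lay below 24 h withdrawal, with medians of -0.56 (cytosolic) and -0.16 (mitochondrial), and in the fit of 14 libraries 17 cytosolic and 5 mitochondrial genes were called lower, against 6.85% of all genes, and Fars2 higher, against 6.75%. All WNT libraries lay below all 24 h libraries for 12 cytosolic and 5 mitochondrial genes, against 9.63% of all genes, and above them for Qars, Fars2 and Lars2, against 11.1%. The FZD5 agonist had medians of -0.15 and -0.21, and Gars and Wars were called lower in the fit of 14 libraries, against 1.86% of all genes. Its libraries lay below those of 24 h for 6 cytosolic and 6 mitochondrial genes, against 10% of all genes, and above them for 0 members, against 9.75%. The FZD6 agonist had medians of 0.14 and 0.04 and 0 members called in either fit, against 0% and 0.533% of all genes called higher. Its libraries lay below those of 24 h for Cars2, against 5.79% of all genes, and above them for 0 members, against 6.66%. Over 18 libraries 0 members were called for any of the 3 ligands, against 0.0303% of all genes called higher for WNT and 0.00606% for the FZD5 agonist. At an unadjusted p under 0.05 edgeR counted 10, 1 and 0 cytosolic genes there for WNT, the FZD5 agonist and the FZD6 agonist, and 6, 3 and 1 mitochondrial genes, against 16.3%, 17.6% and 15.3% of all genes. Apart from WNT, these counts were near or below that share. DESeq2 called 4 cytosolic and 1 mitochondrial gene, all for WNT, against 2.27%, 0.921% and 1.25% of all genes for the 3 ligands.

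A test of any difference among the 6 groups called 5 cytosolic genes (Tars, Cars, Nars, Yars and Mars1) and Yars2 over 18 libraries, against 0.649% of all genes, and 19 cytosolic and 7 mitochondrial genes over 14, against 29.3%. It gave 0 cytosolic calls without CHIR 1, FZD5 agonist 3 or any 1 of the 48 h withdrawal and WNT libraries, and 10 without 24 h withdrawal 2. The calls over all genes moved likewise. They numbered 51 of 16970 without CHIR 1, 22 of 17081 without FZD5 agonist 3 and 886 of 16939 without 24 h withdrawal 2. Without 48 h withdrawal 1, 2 or 3 they numbered 3, 6 and 5, and without WNT 1, 2 or 3 they numbered 17, 6 and 5. Most genes of the cytosolic set correlated with the rest of it, but the share of all genes with values as high was not counted. The correlation of a gene's log2 CPM with the mean of the other cytosolic genes had a median of 0.88 over 18 libraries, from -0.36 for Qars to 0.96 for Eprs, and 13 of 20 exceeded 0.8. For the mitochondrial genes the median was 0.31, and Mars2, Nars2 and Yars2 exceeded 0.8. Over the 14 libraries the medians were 0.96 and 0.63, with Qars at -0.88, and 18 cytosolic and 7 mitochondrial genes exceeded 0.8. These correlations describe libraries that share treatment groups and carry no test. Of all genes tested outside the 36, those most like the mean of the 20 cytosolic genes over the 18 libraries were Noc2l (r = 0.98), Ifrd2 (0.98), Hspa9 (0.97), Asns (0.97) and Prmt3 (0.97).

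Per unit of gene length (RPKM on TMM-scaled libraries), Lars2 had the highest median level of the 36 genes, 361 RPKM, and its lowest level, 119 RPKM, was in CHIR 1. Whether reads of Lars2 are shared with near-identical sequence elsewhere was not tested, so its level is uncertain. Gars (92.1 RPKM) and Nars (88.7 RPKM) followed, and the other cytosolic medians ran down to 19.4 RPKM for Lars. The mitochondrial medians other than Lars2 ran from 1.40 RPKM for Mars2 to 27.3 RPKM for Rars2, so both sets overlapped in level. The deposited width of Mars2, 11294 bases, was the largest of the 36 genes, so its low RPKM depends on that width. The cytosolic gene had the higher median in 14 of 15 pairs, with leucine the exception (19.4 RPKM for Lars and 361 RPKM for Lars2). Of the cytosolic genes Qars, at 20.8 RPKM, had the second lowest median.

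Scaffold and editing proteins were followed with the enzymes. Of 7 genes, 3 were called lower after 48 h than with CHIR over 18 libraries, against 1.49% of all genes, and 4 over 14, against 13.9%. Eef1e1, a scaffold of the complex, changed by -1.18 ± 0.22 (adjusted p = 0.0126), from 78.1, 47.0 and 48.5 CPM to 25.4, 25.3 and 25.8 CPM. Aimp2, another scaffold, changed by -1.29 ± 0.31 (adjusted p = 0.0371), from 86.8, 48.9 and 34.8 CPM to 25.4, 21.2 and 22.9 CPM, and Dtd1, which clears D-aminoacyl-tRNA, by -1.02 ± 0.24 (adjusted p = 0.0372). The other 4 were not called: the log2 values were -0.66 ± 0.35 for Aimp1, the third scaffold (adjusted p = 0.373), -0.64 ± 0.24 for Dtd2 (adjusted p = 0.194), -0.03 ± 0.26 for Prorsd1 (adjusted p = 0.978) and -1.44 ± 0.47 for Aarsd1, an editing protein at or below 3.98 CPM (adjusted p = 0.118). Over 14 libraries Dtd2 and Prorsd1 were fitted on the other side of 0, at 0.06 and 0.20, without a call. With the FZD5 agonist Aimp2 (0.67 ± 0.10, adjusted p = 0.000457) and Eef1e1 (0.29 ± 0.09, adjusted p = 0.0431) were called higher than after 48 h in the fit of 14 libraries, against 8.86% of all genes. With the FZD6 agonist the changes in that fit were 0.77 ± 0.11 for Aimp2 and 0.30 ± 0.10 for Eef1e1.

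The enzymes that mature, modify and export tRNA were lower after 48 h in 4 of 16 genes over 18 libraries, with a median of -0.91, against 1.49% of all genes, and in 13 of 16 over 14 libraries, against 13.9%. Mettl1, the catalytic subunit of a tRNA methyltransferase, changed by -1.88 ± 0.26 (adjusted p = 0.00344), from 16.2, 16.6 and 14.9 CPM with CHIR to 3.52, 4.33 and 5.16 CPM after 48 h. Wdr4, the other subunit, changed by -0.95 ± 0.17 (adjusted p = 0.00957), Trmt6 by -1.08 ± 0.23 (adjusted p = 0.0200) and its partner Trmt61a by -1.54 ± 0.38 (adjusted p = 0.0445), while Pus1, a pseudouridine synthase, missed the threshold over 18 libraries (-1.33 ± 0.36, adjusted p = 0.0610). With the FZD5 agonist Mettl1 was at 8.51, 8.88 and 10.0 CPM, above all 48 h libraries, and 3 of the 16 genes were called higher in the fit of 14 libraries, against 8.86% of all genes. The median change of the list against 48 h in that fit was 0.19 with the FZD5 agonist and 0.30 with the FZD6 agonist.

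Of 12 genes of amino acid synthesis, 8 were called lower after 48 h over 18 libraries, with a median log2 change of -2.42 beside -1.34 for the cytosolic synthetases, and 11 over 14, against 1.49% and 13.9% of all genes. Phgdh, the entry enzyme of serine synthesis, was at 16.9, 23.6 and 34.6 CPM with CHIR and 2.57, 2.70 and 2.84 CPM after 48 h (-3.21 ± 0.44, adjusted p = 0.00344). Psat1, the next enzyme, changed by -2.48 ± 0.35 (adjusted p = 0.00398), Shmt2 of mitochondrial one-carbon metabolism by -2.28 ± 0.36 (adjusted p = 0.00648) and Asns, which makes asparagine, by -2.81 ± 0.50 (adjusted p = 0.0102). Asns was at 360, 306 and 689 CPM with CHIR and 69.2, 61.2 and 63.2 CPM after 48 h, and at 67.1, 68.8 and 60.9 CPM with WNT and 78.3, 135 and 128 CPM with the FZD5 agonist. Over 14 libraries, 8 of the 12 were called higher with the FZD5 agonist and 7 with the FZD6 agonist than after 48 h, and 0 with WNT, against 8.86%, 7.42% and 0% of all genes.

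Of 11 amino acid transporters tested, out of 12 listed, 3 were called lower after 48 h over 18 libraries and 8 over 14, against 1.49% and 13.9% of all genes. They were Slc1a4 (-2.44 ± 0.56, adjusted p = 0.0315), Slc7a1 (-1.86 ± 0.43, adjusted p = 0.0327) and Slc7a11, the cystine carrier (-3.06 ± 0.76, adjusted p = 0.0467), and Slc7a3 was not called (-4.93 ± 1.54, adjusted p = 0.107). Of 16 regulators of the amino acid response, 1 was called lower over 18 libraries, Eif4ebp1, a repressor of translation initiation (-2.11 ± 0.41, adjusted p = 0.0138), and 5 over 14, against the same shares. Trib3 (-2.86 ± 0.73, adjusted p = 0.05001), Chac1 (-3.25 ± 0.95, adjusted p = 0.0821) and Atf5 (-3.00 ± 1.14, adjusted p = 0.192) were not called over 18 libraries. Against 48 h, over 14 libraries, the transporter median was 0.58 with the FZD5 agonist and 0.29 with the FZD6 agonist. The regulator median was 0.77 and 0.75. Atf4 itself, named here after its values were seen, was at 113, 198 and 321 CPM with CHIR and 87.0, 73.3 and 73.4 CPM after 48 h (-1.44 ± 0.46, adjusted p = 0.115). In the fit of 14 libraries it was called lower after 48 h (-1.32 ± 0.23, adjusted p = 0.00145) and higher with the FZD5 agonist than after 48 h (0.77 ± 0.17, adjusted p = 0.0129).

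Later steps of translation were represented by 2 lists. Of 6 cytosolic elongation factor genes, Eif5a was called lower after 48 h over 18 libraries (-0.92 ± 0.20, adjusted p = 0.0249), with a median of -0.34 over the list, and 3 of 6 over 14, against 1.49% and 13.9% of all genes. Of 13 genes for the mitochondrial amidotransferase, formyltransferase and translation factors, Qrsl1, the catalytic subunit of the amidotransferase, was called lower (-1.32 ± 0.30, adjusted p = 0.0275), with a median of -0.37, and 4 of 13 over 14, against the same shares. For the FZD5 agonist and the FZD6 agonist against 48 h, 0 genes of these lists were called in either fit, and the medians lay between -0.05 and 0.08. Of all genes, 0% and 0.0121% were called higher over 18 libraries and 8.86% and 7.42% over 14. Called lower were 0% and 0% over 18 and 6.84% and 4.73% over 14. In lists this short, 0 calls does not set these genes apart from all genes.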

How the data were processed

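The labels describe total RNA from column purification and stranded total RNA libraries made from 0.1 µg, and the submitters' processing notes name GSNAP and GRCm38, with no version. No counting tool, annotation or strand setting is given in the sources used here. The authors deposited a count per gene for each library, the authors' RPKM values and a gene width (a length score in bases) per the file headers. Symbols were joined to the gene identifiers from GENCODE M21 for 52489 of 52636 genes. Counts were analysed with edgeR 4.0.16 (R 4.3.3, limma 3.58.1): expression filter by group, TMM scaling and robust quasi-likelihood tests over all 18 libraries and 6 groups, which left 16497 genes, with Benjamini-Hochberg adjustment over all of them. A gene was called at an adjusted p under 0.05. CPM, and RPKM from the deposited width, were computed on TMM-scaled library sizes, with 2 as the prior count for log2 CPM; the SE is the log2 change over the square root of the F statistic. The authors' RPKM values were used only to recover each library's total. Alternatives were DESeq2 1.42.0, other scaling and filters, only the groups compared, a replicate block, each library left out and, added after the data were seen, the 14 libraries that did not stand apart; the comparisons of the agonists with WNT were also added then. The code was tested on simulated counts. Values per library are given for the 8 cytosolic and 4 mitochondrial genes with the smallest p among the 6 groups and for Gars and Kars, and in part for a few others chosen after their values were seen; up to 4 genes of each list and all scaffold and editing genes are named. The members and lists were chosen with earlier results of these data known. No other sample columns were present. The promoter stretches of 1 gene are not reported here.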

Additional observations from a re-analysis of the deposited data

How the results depend on the processing

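RLE scaling and a filter of 1 CPM in 3 libraries kept every count of called members within 1.5 times. Counts below are cytosolic and then mitochondrial unless a set is named. DESeq2 called 15 and 5 for 48 h withdrawal against CHIR, 1 and 1 for 24 h against CHIR, 5 and 2 for 48 h against 24 h, 4 and 2 for the FZD6 agonist against 48 h, 4 and 1 for WNT against 24 h, 3 cytosolic for the FZD6 agonist against WNT and 13 and 5 among the 6 groups, against 7.73%, 2.93%, 3.53%, 0.394%, 2.27%, 0.364% and 10% of all genes. The 14 libraries gave 19 and 7 for 48 h against CHIR, 1 and 1 for 24 h against CHIR, 19 and 7 for 48 h against 24 h, 15 and 2 for the FZD5 agonist and 14 and 3 for the FZD6 agonist against 48 h, 17 and 6 for WNT and 2 cytosolic for the FZD5 agonist against 24 h, 13 and 3 for the FZD5 agonist and 12 and 2 for the FZD6 agonist against WNT, and 19 and 7 among the 6 groups. Fits of only the compared groups gave 6 and 1 for 48 h against CHIR, 12 and 2 for the FZD5 agonist and 1 cytosolic for the FZD6 agonist against 48 h, and 11 and 1 for the FZD5 agonist against WNT. In the same order, these fits called 129 of 15166, 1958 of 15031, 30 of 15097 and 1998 of 15303 of all genes. Without a filter there was 1 mitochondrial call for 48 h against CHIR and 0 among the 6 groups, where 204 and 88 of 30227 genes were called. The replicate block gave 7 and 1 for 48 h against CHIR and 0 and 0 among the 6 groups, where 257 and 14 of 16497 genes were called. Libraries of the same number showed no clear pairing: 4 of 45 same-number pairs correlated over 0.1 and 5 of 18 libraries correlated best with their own number. A weak pairing could be missed, since the 4 libraries that stood apart were included. Leaving out 1 library gave 2 to 9 and 1 to 3 for 48 h against CHIR, 0 to 1 cytosolic for 48 h against 24 h, 0 to 1 mitochondrial for the FZD5 agonist and for the FZD6 agonist against 24 h, and 0 to 10 and 0 to 3 among the 6 groups. Over the 16939 to 17099 genes tested, these omissions gave 57 to 920, 0 to 509, 0 to 1139, 0 to 985 and 3 to 886 calls, in the same order. Nars2 changed sign for the FZD5 agonist against 48 h, from 0.046 to -0.043 without FZD5 agonist 2, and ran from -0.043 to 0.118 over the libraries left out, never called. Except where fewer libraries or genes were used, the cause was not tested. With 3 libraries a group, a gene that misses the threshold is not shown to be unaltered.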
